A study of Saccharomyces cerevisiae with 6 samples.

Results

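The promoters of the cytosolic small subunit ribosomal protein genes were examined in 6 calling cards libraries of budding yeast. The members are the genes whose symbol is RPS followed by a digit, a rule that uses the name and no measured value. The group was nevertheless chosen with earlier results of these data known. The gene table held 56 of them among 6002 nuclear protein-coding genes. A promoter was the 700 bp before the start codon. One member, RPS21A on chromosome XI, was left out because the table's positions did not hold in the files around it, which left 55 members among 5558 genes measured.

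In calling cards, a transcription factor (TF) is fused to the silencing protein Sir4, which brings in the retrotransposon Ty5, and Ty5 then inserts close to where the TF sits on the genome. There was 1 library each for Sfp1, Eds1, Ino4, Zap1, Leu3 and Rgt1, and none had a replicate. All came from strain BY4741 lacking its own SIR4 gene and carrying the fusion on a plasmid, started from 1 clone per TF and grown on galactose, which drives Ty5. The fusion protein, the clone and the library therefore cannot be told apart in any difference below. The libraries held 35758 insertions for Sfp1, 30707 for Eds1, 15951 for Ino4, 16019 for Zap1, 75550 for Leu3 and 29776 for Rgt1. A promoter with no insertion can still hold a share of up to 0.839 per 10000 in the Sfp1 library and 1.88 per 10000 in the Ino4 library, by the 3 counts that a count of 0 allows. Every interval below is an exact 95% interval that covers counting error only.

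The small subunit of the ribosome reads the messenger RNA and checks the pairing of codon and anticodon. Its proteins are made in balance with those of the large subunit, from promoters that are mostly bound by Rap1 together with Fhl1 and Ifh1. Sfp1 is a zinc finger protein that moves into the nucleus when nutrients and TOR signalling allow growth, and it is known as an activator of ribosomal protein and ribosome biogenesis genes. The other TFs serve other pathways. Leu3 regulates leucine synthesis, Ino4 phospholipid synthesis, Zap1 zinc uptake and Rgt1 glucose transporter genes, and Eds1 is a paralog of Rgt1. They are used here as the background of one another.

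The small subunit promoters took a larger share of the Sfp1 library than of the other 5 pooled. They held 452 Sfp1 insertions, 1.26% of that library (interval 1.15 to 1.39%), against 1017 insertions and 0.605% (0.569 to 0.644%) in the other 5, a ratio of 2.09 (1.86 to 2.34). The share of the Zap1 library was 1.05%, that of Ino4 0.853% and that of Eds1 0.71%, with 0.572% for Leu3 and 0.208% for Rgt1. The Sfp1 and Zap1 libraries were highest and neighbours in this order, with overlapping intervals and a ratio of 1.2 (1 to 1.44), and Rgt1 was lowest. The Sfp1 share was 1.78 times that of Eds1 (1.51 to 2.1), 1.48 times that of Ino4 (1.22 to 1.81), 2.21 times that of Leu3 (1.93 to 2.53) and 6.07 times that of Rgt1 (4.65 to 8.05). These ratios use whole library totals. The rich windows described below took 69.7% of the Rgt1 and 39.5% of the Leu3 total, against 15.1% for Sfp1. Ratios to single libraries were not computed without those windows. Against Eds1, Ino4 and Zap1 alone, which together held 523 insertions or 0.834%, the ratio was 1.51 (1.33 to 1.72). These sums carry no test, since each TF had 1 library.

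**Figure D1:**
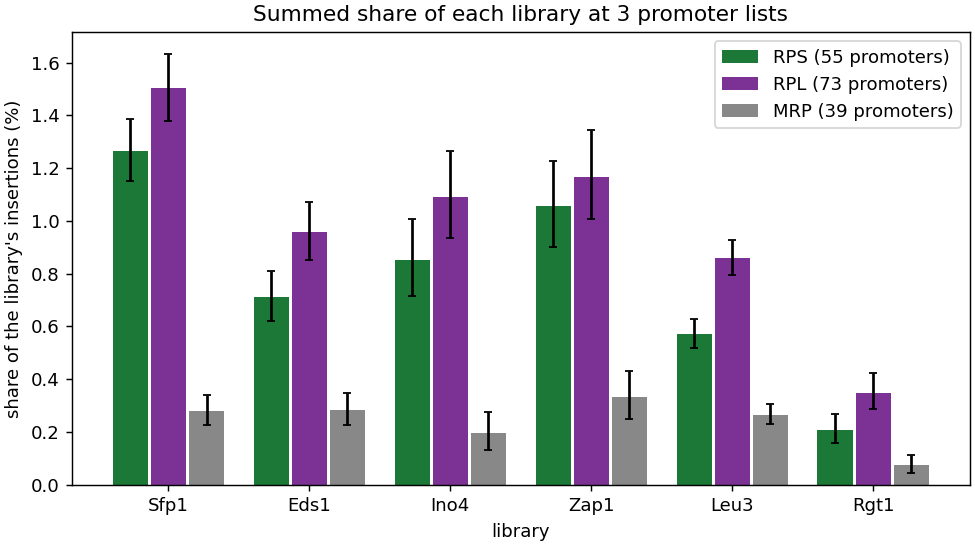
Share of each library's insertions, in percent, at the promoters of small subunit (RPS, 55), large subunit (RPL, 73) and mitochondrial (MRP, 39) ribosomal protein genes, with exact 95% intervals that cover counting error only. The small subunit share is 1.26% in the Sfp1 library and 0.208% in the Rgt1 library, and the large subunit bar stands above the small subunit bar in each of the 6 libraries. The bars are sums over unequal numbers of promoters, so bars of different lists do not compare single promoters.

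The promoters of the large subunit genes followed the same order of libraries. Over 73 of them, Sfp1 had 1.5% of its insertions against 0.839% of the other 5, a ratio of 1.79 (1.62 to 1.98). The 39 promoters of mitochondrial ribosomal proteins, which belong to a separate ribosome, had 0.28% of Sfp1 insertions against 0.235%, a ratio of 1.19 (0.948 to 1.49). All 5558 promoters together had a ratio of 1.07 (1.06 to 1.09). The intervals of the small and large subunit ratios overlapped.

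The pooled libraries differ in how many insertions lie at a few places, and this moves every ratio. Windows of 1 kb that each held over 0.1% of some library took 15.1% of the Sfp1 insertions, against 39.5% of Leu3 and 69.7% of Rgt1, and among the members they touched RPS3 alone. Over all genes, the median log2 ratio of Sfp1 to the other 5 was 0.39, so a member at that level did not stand out. The members' median was 1.04, with quartiles of 0.59 and 1.52. With library totals taken without these windows, the median of all genes was 0.00 on the log2 scale, that of the members 0.61, and the summed ratio of the members 1.53. With Eds1, Ino4 and Zap1 as the background, the medians were 0.70 for the members and 0.03 for all genes. The share of members above a ratio of 1 moved in the same way. It was 50 of 55 members and 62.4% of all genes against the other 5 libraries, 44 of 55 and 48.2% with the reduced totals, and 43 of 55 and 51.4% against Eds1, Ino4 and Zap1.

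**Figure D2:**
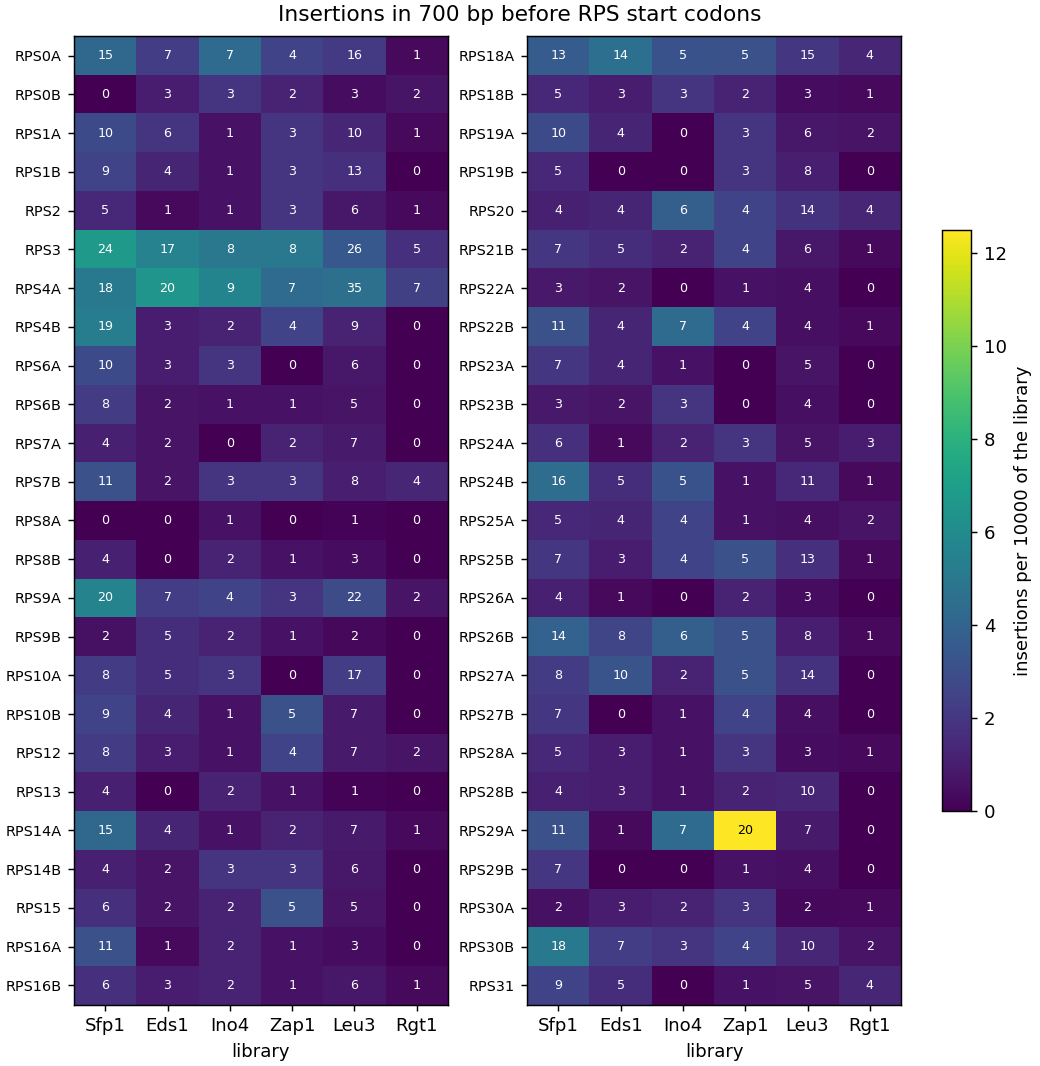
Insertions within 700 bp before the start codon of 50 of the 55 members (rows) in the 6 libraries (columns). Numbers are insertions, and colour is their share per 10000 of the library. The brightest cell is RPS29A in the Zap1 library, with 20 insertions, and RPS3 and RPS4A are bright in most libraries.

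Single promoters held few insertions. The Sfp1 library had a median of 7 per member, from 0 at RPS0B and RPS8A to 24 at RPS3. The median was 3 in the Eds1 and Zap1 libraries, 2 in Ino4, 6 in Leu3 and 1 in Rgt1, where 27 members had none. Every member had an insertion in at least 1 library, from 2 at RPS8A to 96 at RPS4A over all 6. The Sfp1 share was higher than the Rgt1 share at 52 of 55 members, than the Leu3 share at 50, than the Eds1 share at 46, than the Ino4 share at 37 and than the Zap1 share at 31. Sfp1 had the highest share of the 6 libraries at 21 members. These comparisons were not counted over all promoters, so they do not separate the members from differences between whole libraries. Such differences were present. Set against its own other 5 libraries, Rgt1 had a ratio over 1 at 3 members and at 11.2% of all promoters. Leu3 did so at 11 members and 34.3% of all promoters, Zap1 at 40 and 48.9%, Ino4 at 31 and 52.2%, Eds1 at 24 and 53.2%.

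Each promoter was then tested for a higher share of the Sfp1 library than of the other 5, by a one-sided Fisher's exact test with Benjamini-Hochberg adjustment over all 5558 promoters. It compares libraries and not conditions. Of the 55 members 6 were called at an adjusted p under 0.05, that is 10.9%, against 3.13% of all promoters tested. These were RPS4B, RPS9A, RPS14A, RPS16A, RPS24B and RPS30B. Of the large subunit promoters 8 of 73 were called, 11%, and of the mitochondrial ones 0 of 39, of which 2 had an unadjusted p under 0.05. By the second rule, a share at least 2 times that of the background with 5 or more insertions, 28 members passed, 50.9%, against 15.1% of all promoters. Both rules depend on insertion number, and most members were rich in insertions. Among the 3623 promoters with at least 10 insertions, 8 of 53 members were called, against 5.69% of these promoters. There 28 members passed the 2-fold rule, against 22.2%. The 49 members not called in the main count still had 353 Sfp1 and 890 other insertions, a ratio of 1.86 (1.64 to 2.11).

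RPS4B (YHR203C, chromosome VIII) encodes one of the paired copies of a protein of the subunit's body that assembles early. Its window held 19 Sfp1 insertions, against 3 for Eds1, 2 for Ino4, 4 for Zap1, 9 for Leu3 and 0 for Rgt1, lying between positions 505610 and 506143 of the files. The Sfp1 share was 5.31 per 10000 and that of the other 5 was 1.07, a ratio of 4.96 (2.46 to 10) with an adjusted p of 4.7e-04 by Fisher's exact test. Sfp1 stood above each of the other libraries here. Of the 19 Sfp1 insertions 17, and all 18 of the other 5 libraries, also lay within 700 bp of the start of the divergent gene MNL1. They cannot be given to either gene. RPS4B was also the member nearest to the threshold against Eds1, Ino4 and Zap1, with a ratio of 3.7 (1.6 to 9.29) and an adjusted p of 0.0939 by the same test.

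RPS16A (YMR143W, chromosome XIII) encodes a protein whose tail reaches the transfer RNA in the P site. Its window held 11 Sfp1 insertions, against 1 for Eds1, 2 for Ino4, 1 for Zap1, 3 for Leu3 and 0 for Rgt1, between positions 551382 and 551832. The ratio of 7.38 (2.61 to 22.5) was the highest among the 53 members with at least 10 insertions in all libraries, with an adjusted p of 0.00429 by Fisher's exact test. Of the Sfp1 insertions 10 lay within 300 bp of the start codon. RPS16A is divergent from RPL13B, a large subunit gene, and all 11 Sfp1 insertions also lay within 700 bp of that gene's start, so they cannot be given to either.

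RPS14A (YCR031C, chromosome III) encodes a protein of the platform, near where messenger RNA leaves the subunit. It had 15 Sfp1 insertions, against 4 for Eds1, 1 for Ino4, 2 for Zap1, 7 for Leu3 and 1 for Rgt1, between positions 178284 and 178878. The ratio was 4.7 (2.14 to 10.3) with an adjusted p of 0.00447 by Fisher's exact test. Most of them were far from the gene, with a median distance of 600 bp for Sfp1 and 598 bp for the other 5, and 8 of the 15 were also within 700 bp of the divergent gene BPH1.

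RPS24B (YIL069C, chromosome IX) encodes a protein of the subunit's body. It had 16 Sfp1 insertions, against 5 for Eds1, 5 for Ino4, 1 for Zap1, 11 for Leu3 and 1 for Rgt1, between positions 232374 and 232989. The ratio was 3.27 (1.61 to 6.46) with an adjusted p of 0.0229 by Fisher's exact test. No Sfp1 insertion lay farther than 382 bp from the start codon. The Ino4 share, 3.13 per 10000, was the nearest to the Sfp1 share of 4.47.

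RPS30B (YOR182C, chromosome XV) encodes a small protein of the decoding region. It had 18 Sfp1 insertions, against 7 for Eds1, 3 for Ino4, 4 for Zap1, 10 for Leu3 and 2 for Rgt1, between positions 678830 and 679441. The ratio was 3.25 (1.68 to 6.16) with an adjusted p of 0.0134 by Fisher's exact test. The table places another gene, FYV12, immediately upstream and on the opposite strand. When the window was ended at FYV12, 0 of the Sfp1 insertions remained, so the call rests on insertions at or beyond that gene.

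RPS9A (YPL081W, chromosome XVI) encodes a protein known for its part in the accuracy of decoding. It had 20 Sfp1 insertions, against 7 for Eds1, 4 for Ino4, 3 for Zap1, 22 for Leu3 and 2 for Rgt1, between positions 404284 and 404913. The ratio was 2.47 (1.36 to 4.36) with an adjusted p of 0.0481 by Fisher's exact test, the nearest of the 6 calls to the threshold, and the call was lost under 10 of its 18 alternatives. Of the 20 Sfp1 insertions 15, and 36 of the 38 in the other 5 libraries, also lay within 700 bp of the start of the divergent gene MOT1. The 2 kinds of library differed in position here. Sfp1 insertions had a median distance of 295 bp, with 10 of 20 within 300 bp of the start codon, against a median of 511 bp and 5 of 38 in the other 5 libraries, where 17 of the 22 Leu3 insertions lay beyond 500 bp.

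The 6 calls were not equally firm across the ways of counting. RPS4B was called under 17 of 18 alternatives, RPS16A under 15 of 18, RPS14A under 15 of 19, RPS30B under 13 of 18 and RPS24B under 12 of 18. When insertions within 5 bp of each other were counted once, 0 of 55 members and 0 of all 5558 promoters were called, while 12 members and 4.46% of all promoters had an unadjusted p under 0.05. With the totals that leave out the richest windows only RPS4B was called, with 0.648% of all promoters. Leaving the Rgt1 library out of the background left 4 calls, RPS4B, RPS14A, RPS16A and RPS30B, with 1.84% of all promoters, so the calls fell among all promoters too. RPS24B was not called without Leu3, at a ratio of 3.45, or without Rgt1, at 2.81. RPS30B was not called without Leu3, at 2.91, nor RPS9A without Rgt1, at 2.15, or without Zap1, at 2.43. Other members entered the calls, RPS29B under 5 alternatives, RPS6A under 4, RPS6B under 2 and RPS3 under 1.

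**Figure D3:**
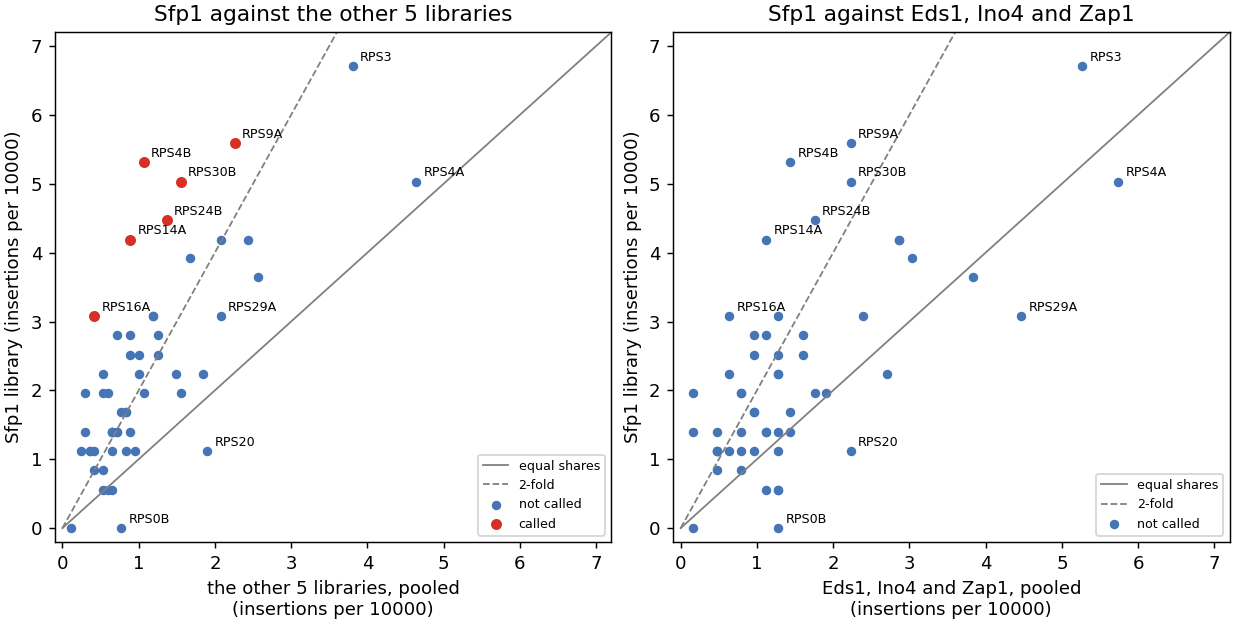
Share of the Sfp1 library at each of the 55 members, per 10000 insertions, against the pooled share of the other 5 libraries (left) and of Eds1, Ino4 and Zap1 (right). The solid line marks equal shares and the dashed line a 2-fold higher Sfp1 share. Red points are the 6 members called against the other 5 libraries, and no point is red on the right.

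Against Eds1, Ino4 and Zap1 alone, 0 of 55 members were called, against 0.504% of all promoters, by the same Fisher's exact test. At an unadjusted p under 0.05 there were 12 members, against 6.12% of all promoters. The two-sided Fisher's exact test also called 0, with 10 members under 0.05 before adjustment, against 7% of all promoters. By the 2-fold rule 16 members passed, 29.1%, against 9.73% of all promoters, and all 16 were among the 28 that passed it against the other 5 libraries. Among promoters with at least 10 insertions in these libraries, 13 of 42 members passed it, against 14.8% of promoters. The background here holds 62677 insertions in place of 168003, and the lowest adjusted p was 0.0939, at RPS4B. For large subunit promoters 0 of 73 were called, 12 had an unadjusted p under 0.05 and 17 passed the 2-fold rule.

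The members with the most insertions were not those with the highest ratios. RPS4A, the other copy of RPS4B, led with 18 Sfp1 insertions, against 20 for Eds1, 9 for Ino4, 7 for Zap1, 35 for Leu3 and 7 for Rgt1, a ratio of 1.08 (0.611 to 1.83). It was rich in each library. RPS3, whose protein lies at the entry of the messenger RNA channel, had 24 Sfp1 insertions, against 17, 8, 8, 26 and 5 in the Eds1, Ino4, Zap1, Leu3 and Rgt1 libraries, a ratio of 1.76 (1.05 to 2.86) and an adjusted p of 0.197 by Fisher's exact test. RPS18A, for a protein of the head at the contact with the large subunit, had 13 Sfp1 insertions against 43 in the other 5 libraries, a ratio of 1.42 (0.701 to 2.69). Across the 55 members, Sfp1 insertions and those of the other 5 had a Pearson's r of 0.72 and a Spearman's rho of 0.70. These members share each library's depth and lie in the same windows, so this is a description only. Without the 5 richest members the summed ratio was 2.26 (1.99 to 2.56).

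Besides the called members, RPS29B was among those with the highest ratios. It had 7 Sfp1 insertions, against 1 for Zap1, 4 for Leu3 and 0 for Eds1, Ino4 and Rgt1, a ratio of 6.58 (1.8 to 26.3) with an adjusted p of 0.0508 by Fisher's exact test, just past the threshold. It was called when the Leu3 or the Zap1 library was left out, when the background libraries were weighted equally, by the two-sided test, and when only windows with at least 10 insertions were tested. All 7 Sfp1 insertions lay between 467 and 529 bp before the start codon, and all 7 were also within 700 bp of the divergent gene TSR1, whose product is a factor of small subunit assembly.

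Among the lowest ratios of members with at least 10 insertions were those of RPS0B, RPS20, RPS30A and RPS9B. RPS0B, for a relative of the human laminin receptor protein, had 0 Sfp1 insertions, against 3 for Eds1, 3 for Ino4, 2 for Zap1, 3 for Leu3 and 2 for Rgt1, and the interval of the ratio reached 1.54. RPS20, for a protein of the head, had 4 Sfp1 insertions, against 4 for Eds1, 6 for Ino4, 4 for Zap1, 14 for Leu3 and 4 for Rgt1, a ratio of 0.587 (0.151 to 1.66). RPS30A had 2 Sfp1 against 11 other insertions, and RPS9B 2 against 10. No member had an interval of the ratio wholly below 1, and 19 had one wholly above 1. Against Eds1, Ino4 and Zap1 alone 7 had one wholly above 1. Intervals were not counted over all promoters. By the one-sided Fisher's exact test against the other 5 libraries, 40% of the members and 13.9% of all promoters had an unadjusted p under 0.05. Among promoters with at least 10 insertions these were 21 of 53 members and 18.1% of promoters. RPS8A had 0 Sfp1 insertions, with 1 in the Ino4 and 1 in the Leu3 library, too few for any statement.

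Most small subunit proteins are made from a pair of duplicated genes, and 23 pairs had both copies measured. Among the pairs with the most unequal Sfp1 counts were RPS9, RPS30, RPS0 and RPS14. RPS9A had 20 and RPS9B 2 Sfp1 insertions, against 38 and 10 in the other 5 libraries. RPS30A had 2 and RPS30B 18, against 11 and 26. RPS0A, with a ratio of 2.01, had 15 and RPS0B 0, against 35 and 13, and RPS14A had 15 and RPS14B 4, against 15 and 14. At RPS9, RPS30 and RPS0 the copy richer in Sfp1 insertions was also the richer in the other libraries, whereas the RPS14 copies differed by 1 insertion there. RPS4A and RPS4B had 18 and 19 Sfp1 insertions but 78 and 18 in the other libraries. At 19 pairs both copies had a ratio over 1 and at 4 pairs one copy did, where 62.4% of all promoters had such a ratio. Both copies reached a ratio of 2 at 8 pairs, one at 12 and neither at 3, without the minimum of 5 insertions. Pairs were not compared with unpaired promoters, so these counts do not show that copies go together. RPS6 had both copies above 2, with 10 and 8 Sfp1 insertions against 12 and 9. Its ratios were 3.92 and 4.18, and neither copy was called.

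The remaining pairs had fewer or more even counts. RPS26A had 4 and RPS26B 14, against 6 and 28 in the other 5 libraries, and RPS24A, the partner of RPS24B, had 6 against 14. RPS22A had 3 and RPS22B 11, against 7 and 20. RPS7A had 4 and RPS7B 11, against 11 and 20. In these pairs copy B was the richer in the Sfp1 library and in the other libraries. RPS18B, the partner of RPS18A, had 5 against 12, RPS16B, the partner of RPS16A, had 6 against 13, and RPS8B had 4 against 6. RPS19A had 10 and RPS19B 5, against 15 and 11, and RPS23A had 7 and RPS23B 3, against 10 and 9. At RPS19 and RPS23 copy A was the richer on both sides. The copies were close in the Sfp1 library at RPS1, with 10 and 9 insertions against 21 at each copy, and at RPS10, with 8 and 9 against 25 and 17. RPS25A had 5 and RPS25B 7, against 15 and 26. RPS27A had 8 and RPS27B 7, against 31 and 9, and RPS28A had 5 and RPS28B 4, against 11 and 16. At RPS27 the copies were uneven in the other libraries and nearly even in Sfp1. RPS21B, whose partner RPS21A was not measured, had 7 against 18. None of these members was called in either Sfp1 comparison.

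**Figure D4:**
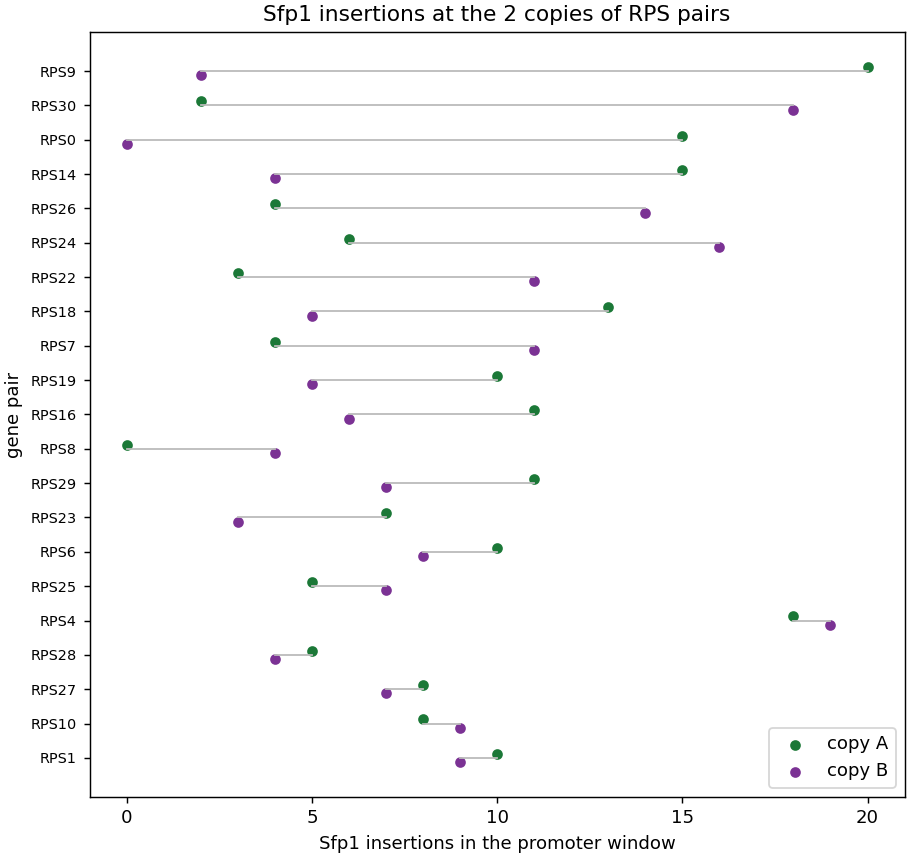
Sfp1 insertions in the promoter windows of both copies of 21 of the 23 duplicated small subunit genes, with 1 row per pair and the most unequal pair at the top. Green points are copy A and purple points copy B. RPS9 has 20 and 2 insertions at the top, and RPS1 has 10 and 9 at the bottom.

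Of the single-copy genes described singly, RPS3 is given above. RPS2 had 5 Sfp1 insertions against 12 in the other libraries, RPS12 had 8 against 17, RPS13 had 4 against 4, RPS15 had 6 against 14, RPS20 had 4 against 32 and RPS31, whose product is made as a fusion with ubiquitin, had 9 against 15. Their ratios were from 0.587 at RPS20 to 4.7 at RPS13, where the interval of 0.875 to 25.2 included 1, and none was called.

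In the other libraries, 1 member was called for Zap1 and 0 for Eds1, Ino4, Leu3 and Rgt1. Of all promoters 0.432% were called for Zap1, 0.288% for Eds1, 0.432% for Ino4, 2.82% for Leu3 and 1.3% for Rgt1. At an unadjusted p under 0.05 there were 6 members for Zap1, 2 for Eds1, 1 for Ino4 and 0 for Leu3 and Rgt1, where the shares of all promoters were 7.09%, 7.25%, 8.13%, 4.59% and 1.82% in that order of libraries. The 6 members for Zap1 are 10.9% of 55. By the 2-fold rule 4 members passed for Zap1, against 4.5% of all promoters, 1 for Eds1 against 7.77%, 3 for Ino4 against 5.87%, 0 for Leu3 against 6.59% and 0 for Rgt1 against 1.78%. The member called was RPS29A (YLR388W, chromosome XII), which encodes a zinc-binding protein of the head. It had 20 Zap1 insertions, against 11 for Sfp1, 1 for Eds1, 7 for Ino4, 7 for Leu3 and 0 for Rgt1, a ratio of 9.02 (4.77 to 16.8) with an adjusted p of 3.7e-08 by Fisher's exact test.

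The Zap1 insertions at RPS29A lay between positions 897965 and 898282, at 19 distinct positions, with a median distance of 651 bp from the start codon, and 13 of them lay within 50 bp of a single one. They came with 14 in the first and 6 in the second run of lines through the chromosomes in the Zap1 file. The neighbour on that side is REH1, a divergent gene, and all 20 Zap1 insertions also lay within 700 bp of its start. Counted once where they lay within 5 bp of each other, 10 Zap1 insertions remained and the promoter was not called, nor was it with a window of 500 bp. In the Sfp1 library 10 of the 11 insertions at RPS29A were likewise beyond 500 bp.

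By position, the members' Sfp1 insertions lay closer to the gene than those of the other libraries. Within 300 bp of the start codon were 43.4% of the Sfp1 insertions in the members' windows (38.7 to 48.1%), against 35.1% (32.2 to 38.1%) in the other 5 libraries. The Sfp1 and Zap1 values, 43.4% and 41.4%, were close, and Rgt1 was lowest at 27.4% of 62 insertions. Over all promoters tested the same shares were 51.1% for Sfp1 and 45% for the other 5, so this difference was not particular to the members. In the other 5 libraries the members' insertions were most frequent from 401 to 500 bp, with 213 of 1017, and RPS4A alone gave 51 of these. Without RPS4A the shares within 300 bp were 44.2% for Sfp1 and 37.8% for the other 5.

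**Figure D5:**
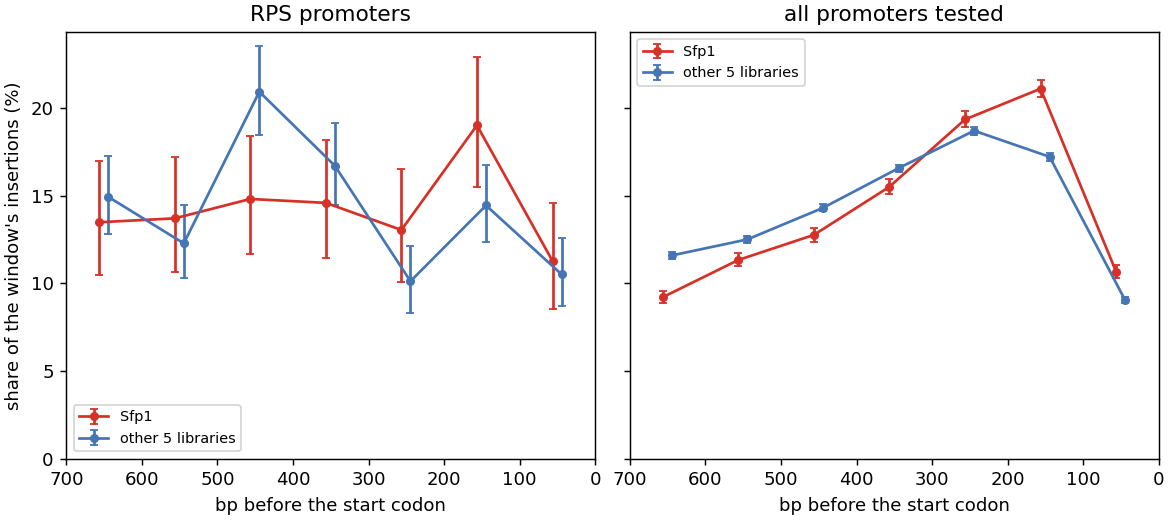
Share of the insertions in the promoter windows, in percent, by distance before the start codon in bins of 100 bp, for the 55 members (left) and all 5558 promoters tested (right). Red is Sfp1, blue the other 5 libraries pooled, and bars are exact 95% intervals. At the members the blue line is highest at 401 to 500 bp, and the red line at 101 to 200 bp with 86 of 452 insertions.

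The coding regions of the members took few insertions in each library. They held 38 Sfp1 insertions, 0.106% of the library (0.0752 to 0.146%), against 0.0749% for Eds1, 0.094% for Ino4, 0.137% for Zap1, 0.0874% for Leu3 and 0.0235% for Rgt1. Sfp1 was not the highest here, and its interval overlapped those of all the others but Rgt1. Per promoter insertion there were 0.0841 coding insertions at the members in the Sfp1 library, against 0.402 over all genes. None of these values takes account of the length of the coding regions, so they do not compare densities.

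A promoter window is not always that of 1 gene. No members' windows overlapped each other, but 34 of the 55 members have a divergent gene as their upstream neighbour, and at these 193 of 312 Sfp1 insertions, 61.9%, also lay within 700 bp of the neighbour's start, against 63.1% in the other 5 libraries. The ratio over the divergent members was 2.04 (1.78 to 2.34), and over the 21 with a neighbour in the same direction 2.2 (1.79 to 2.7). Of the 6 calls, 5 were at divergent members. The neighbours include ribosomal genes, RPL13B and RPL13A at RPS16A and RPS16B, RPL39 at RPS22A and RPP2A at RPS15.

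Other genes of the pathway were examined with the same test, for which 3.13% of all promoters were called and the median log2 ratio of all was 0.39. With lists this short, 1 call is not set apart from that share. The lists were also chosen with earlier results of these data known, so their calls and medians are a description only. Of 13 regulators of ribosomal protein genes measured, 1 was called for Sfp1 against the other 5 libraries, with a median log2 ratio of 0.81. It was MRS6, a Rab escort protein known to bind Sfp1, with 21 Sfp1 insertions against 19, a ratio of 5.19 (2.66 to 10.2) and an adjusted p of 1.2e-04 by Fisher's exact test. RAP1, FHL1 and IFH1, whose products are known to occupy these promoters, were not called. They had 4 Sfp1 against 14 other insertions at RAP1, 2 against 14 at FHL1 and 7 against 30 at IFH1. HMO1 of the same list was not called either, with 12 against 25 and a ratio of 2.26 (1.03 to 4.66). Of 20 factors of small subunit assembly 1 was called, with a median of 0.62. It was RIO1, a kinase of late maturation, with 48 insertions against 77, a ratio of 2.93 (2 to 4.25) and an adjusted p of 8.9e-06 by the same test. Of 3 other ribosome-bound proteins 1 was called, STM1, a protein that clamps idle ribosomes, with 21 against 28, a ratio of 3.52 (1.9 to 6.43) and an adjusted p of 0.00318 by the same test. Against Eds1, Ino4 and Zap1 the adjusted p by Fisher's exact test was 0.063 at MRS6, 0.0765 at RIO1 and 0.266 at STM1, above the threshold at all of them.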

How the data were processed

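Each deposited file lists Ty5 insertions, 1 per line, with chromosome, position and the read count behind it, with no normalization. The authors aligned reads with Novoalign (version not given in the sources used here). Here each line counted as 1 insertion whatever its reads. Positions are those of genome release R61, a release not named in the labels. Gene names and starts came from the RefSeq table of assembly R64, so 2 releases meet and no table coordinate is printed. The starts were therefore checked in 2 ways. Shifts of up to 600 bp of the insertion profile around start codons were tried within 100 kb of each gene, a distance set after a smaller one gave noisy shifts and after a first look at the members' counts, and genes with a best shift over 50 bp were left out (444 of 6002 genes, 242 of them on chromosome XI, and RPS21A with 360 bp). The 55 members kept had a median shift of 15 bp and at most 45 bp. Second, windows ended at the next gene gave the insertion counts behind the authors' deposited scores, of which a part was read, at 13 of 14 members and 88.9% of 1745 genes, and at 44.7% after moving positions by -50 bp. The full 700 bp windows of the main counts gave those counts at 10 of 14 members and 775 of the 1745 genes. At 30 of the 55 members the full window reaches the upstream gene. The deposited scores also define the authors' promoters of the closing section, and no score is printed.

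Shares were compared by one-sided Fisher's exact tests (scipy 1.17.1) with Benjamini-Hochberg adjustment over all 5558 promoters, called at 0.05. Log2 ratios have a pseudocount of 1 insertion shared out by library totals. The code was tested on simulated data. PCR reads carry no molecular identifiers. The members and lists were chosen with earlier results of these data known. The members named in full were those called, the 5 richest, the 5 highest and 5 lowest ratios among those with at least 10 insertions, and the most unequal pairs. The values of 5 members are not reported singly here and enter the sums and counts only. Motifs and promoter sequences were not analysed here. Alternatives changed counting, windows, totals, filters and background libraries.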

Additional observations from a re-analysis of the deposited data

How the results depend on the processing

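No paired analysis was possible because each TF had 1 library. The values here compare libraries, and the cause of each change was not tested unless the setting itself shows it. Against the other 5 libraries the members called numbered 6 in the main count, with 3.13% of all promoters. With each position counted once there were 3, with 1.37% of all promoters, 18 members passing the 2-fold rule against 11.4% of all, and a summed ratio of 1.81. With insertions within 5 bp counted once there were 0, with 0 of all promoters, 14 members against 5.47% by the 2-fold rule and a ratio of 1.56, and 0 calls for the libraries other than Sfp1. With at least 5 reads per insertion there were 3, with 1.64% of all. With totals without the richest 1 kb windows there was 1, with 0.648% of all, 13 members against 8.38% by the 2-fold rule, a ratio of 1.53 and an Sfp1 share of 1.49%. In the authors' promoters, where only 13 members could be tested, there was 1, with 2.65% of the promoters tested, and 7 and 3 members passing the 2-fold rule in the 2 Sfp1 comparisons, against 14.2% and 8.86%, 0 calls for the other libraries, a share of 0.277% and a ratio of 2.39. A window of 500 bp gave a share of 0.92% and 0 calls for the other libraries, a window of 1000 bp 1.5%, and totals over promoter windows, a setting added after seeing the data, 2.02%. Against Eds1, Ino4 and Zap1, 1 member, RPS4B, was called when only windows with at least 10 insertions were tested, 1 of 42 members, with 1.54% of all 2539 promoters. RPS30B had a ratio of 0 when its window was ended at the upstream gene. Leaving out 1 background library at a time gave 4 to 7 calls against the other 5. The summed ratio stayed above 1 in each setting in which it was computed. Depth limits single promoters, since 1 insertion is 0.28 per 10000 of the Sfp1 library and 0.627 of the Ino4 library.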

Other observations

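The lines of 5 files run through the chromosomes more than once, which the sources used here do not explain, and the runs were not treated as replicates. The members' share was 1.26% in the single run of the Sfp1 file. It was 0.636% and 0.954% in the runs of Eds1, 0.735% and 1.09% in those of Ino4, and 1.16% and 0.923% in those of Zap1. The 5 Leu3 runs lay between 0.372% and 0.749%, and the 4 Rgt1 runs between 0.0849% and 0.253%. Each run was below the Sfp1 value, but the upper bounds for the second Ino4 run, 1.4%, and the first Zap1 run, 1.41%, were above it. The Sfp1 interval, 1.15 to 1.39%, also overlapped those of the second Eds1 run, 0.742 to 1.21%, and the second Zap1 run, 0.716 to 1.17%.

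The reads behind an insertion at the members had a median of 28 in the Sfp1 library, against 2 for Eds1, 31 for Ino4, 14 for Zap1, 8 for Leu3 and 2 for Rgt1. The medians of the whole libraries were 27 for Sfp1, 3 for Eds1, 34 for Ino4, 24 for Zap1, 18 for Leu3 and 4 for Rgt1. The libraries thus differed in reads as a whole. Insertions seen in a single read made up 7.52% of those at the members in the Sfp1 library, against 12.4% of that whole library, and 40.3% in the Rgt1 library, against 25.9% of that whole library.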
